A study of Mus musculus with 18 samples.

Results

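The contractile apparatus of smooth muscle was followed in mouse spleen through 10 genes, *Acta2*, *Tagln*, *Myh11*, *Actg2*, *Cnn1*, *Smtn*, *Mylk*, *Lmod1*, *Des* and *Tpm2*. They were chosen by symbol from a table of 19326 gene rows, and all 10 had a row. The table covers spleen RNA in 6 groups of 3 libraries, from 10-week-old mice of the outbred ICR stock. On a high fat diet (HFD) there were 4 groups. These were HFD with FMT from donors given AOS at 10 mg/kg (HFD+AOS-FMT), HFD with FMT from control donors (HFD+control-FMT), HFD with AOS at 10 mg/kg (HFD+AOS), and HFD alone. Off the diet there were mice given AOS at 10 mg/kg (AOS) and controls (control), which the labels do not describe further. FMT is taken to mean the transfer of faecal microbiota, and AOS alginate oligosaccharide, short chains cut from a seaweed polysaccharide. That the donors were given AOS or were controls is likewise read from the labels, which name no donors. Whether each library stands for its own animal is not in the labels, so p-values measure the spread between these libraries, which may be technical.

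Smooth muscle contracts when calcium-bound calmodulin activates myosin light chain kinase, which phosphorylates the regulatory light chain of myosin and lets its heavy chains pull on actin filaments. Many genes of this machinery carry CArG boxes, short DNA elements bound by serum response factor, and are switched on together when that factor pairs with myocardin or a related cofactor. In the spleen, such genes are expressed in the walls of arteries, in contractile cells of the capsule and trabeculae, and in part by fibroblastic reticular cells, which also make alpha smooth muscle actin and desmin. RNA of a whole organ cannot tell fewer cells of a type from less RNA per cell.

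Promoter windows of 300 bases, from 250 before to 50 after the transcript start that the table uses, were taken from RefSeq (GRCm38.p6) for the 7 members listed there, *Acta2*, *Cnn1*, *Smtn*, *Mylk*, *Lmod1*, *Des* and *Tpm2*. That start is not always the gene start of the GENCODE annotation (GRCm38). It lies 39740 bases downstream of it, inside the gene, for *Mylk*, 1320 for *Smtn*, 217 for *Acta2*, 211 for *Tpm2*, 37 for *Cnn1* and 6 for *Lmod1*, and 37 bases before it for *Des*. The counts below hold for these windows only. Windows of *Tagln*, *Myh11* and *Actg2* were not used here. The CArG box, searched on both strands, was in 0 of the 7 windows, against 1.81% of the windows of 27025 genes. With 1 of the 6 middle bases of the box allowed to be C or G, a search added after the first result was seen, 1 of the 7 windows held it, that of *Acta2*, against 11.3% of all windows. A match of letters is a description and shows no binding. The *Acta2* window is shown because this member had the smallest p of the 9 tested in the comparison of HFD+AOS with HFD and is the window with a match. It lies on the minus strand at chr19:34255324-34255623 and is written 5′ to 3′, with the matches in capitals.
Acta2 promoter: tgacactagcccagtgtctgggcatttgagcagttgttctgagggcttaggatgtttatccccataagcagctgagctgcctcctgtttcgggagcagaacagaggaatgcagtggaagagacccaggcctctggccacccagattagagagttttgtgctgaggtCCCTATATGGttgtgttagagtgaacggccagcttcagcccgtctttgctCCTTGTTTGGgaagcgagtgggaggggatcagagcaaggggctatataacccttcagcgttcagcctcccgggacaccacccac
The first match begins 84 bases and the second 34 bases before the start in the RefSeq table, and both lie inside the gene as GENCODE bounds it.

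Values are read as FPKM, fragment numbers scaled to transcript length and library size, so levels can be compared between genes. *Tagln*, which encodes transgelin, an actin-binding protein of smooth muscle, had the highest level among the members, with 39.63 to 93.19 FPKM over the 18 libraries (median 71.2). *Acta2*, alpha smooth muscle actin, ranged over 21.16 to 72.49 FPKM, *Des*, the intermediate filament protein desmin, over 19.54 to 35.66, and *Tpm2*, a tropomyosin that lies along the actin filament, over 14.17 to 30.23. *Mylk*, myosin light chain kinase, had 13.29 to 20.84 FPKM and *Myh11*, the smooth muscle myosin heavy chain, 6.35 to 15.95. *Smtn*, the actin-associated protein smoothelin, had 5.68 to 10.67 FPKM. *Actg2*, the gamma actin of visceral smooth muscle, had 2.73 to 9.4 FPKM, and *Cnn1*, the actin- and calmodulin-binding protein calponin, 1.34 to 7.28. *Lmod1*, leiomodin, which nucleates actin filaments, was lowest with 0.38 to 1.35 FPKM. It did not reach a mean of 1 FPKM in any group and was left out of the tests across genes. The other 9 members had a mean above 1 FPKM in all 6 groups.

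The libraries carried the defining genes of spleen. The B cell receptor component *Cd79a* ranged over 507.55 to 1090.65 FPKM, and *Spic*, the factor of red pulp macrophages, over 36.2 to 75.2. Of striated muscle genes, the skeletal actin *Acta1* was at 0 to 0.7 FPKM and the heart actin *Actc1* at 0 to 0.42. A skeletal muscle list of 10 genes summed to 1.43 to 2.72 FPKM, and a cardiac list of 6 to 2.5 to 7.35. *Tnnt3* of the skeletal list and *Tnnt2* and *Tnni3* of the cardiac list reached a mean of 1 FPKM in at least 1 group. *Myh4*, a fast skeletal myosin, was at most 0.01 FPKM. *Myl9*, the regulatory light chain of smooth muscle myosin, had 79.15 to 179.82 FPKM. *Myocd*, which encodes myocardin, was at 0.02 to 0.17 FPKM in these whole-organ libraries, while *Srf*, serum response factor, was at 21.6 to 29.2. Library totals ran from 627964 to 831448 FPKM and haemoglobin took 10.8% to 34.3% of them. The number of reads behind a value is unknown.

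**Figure D1:**
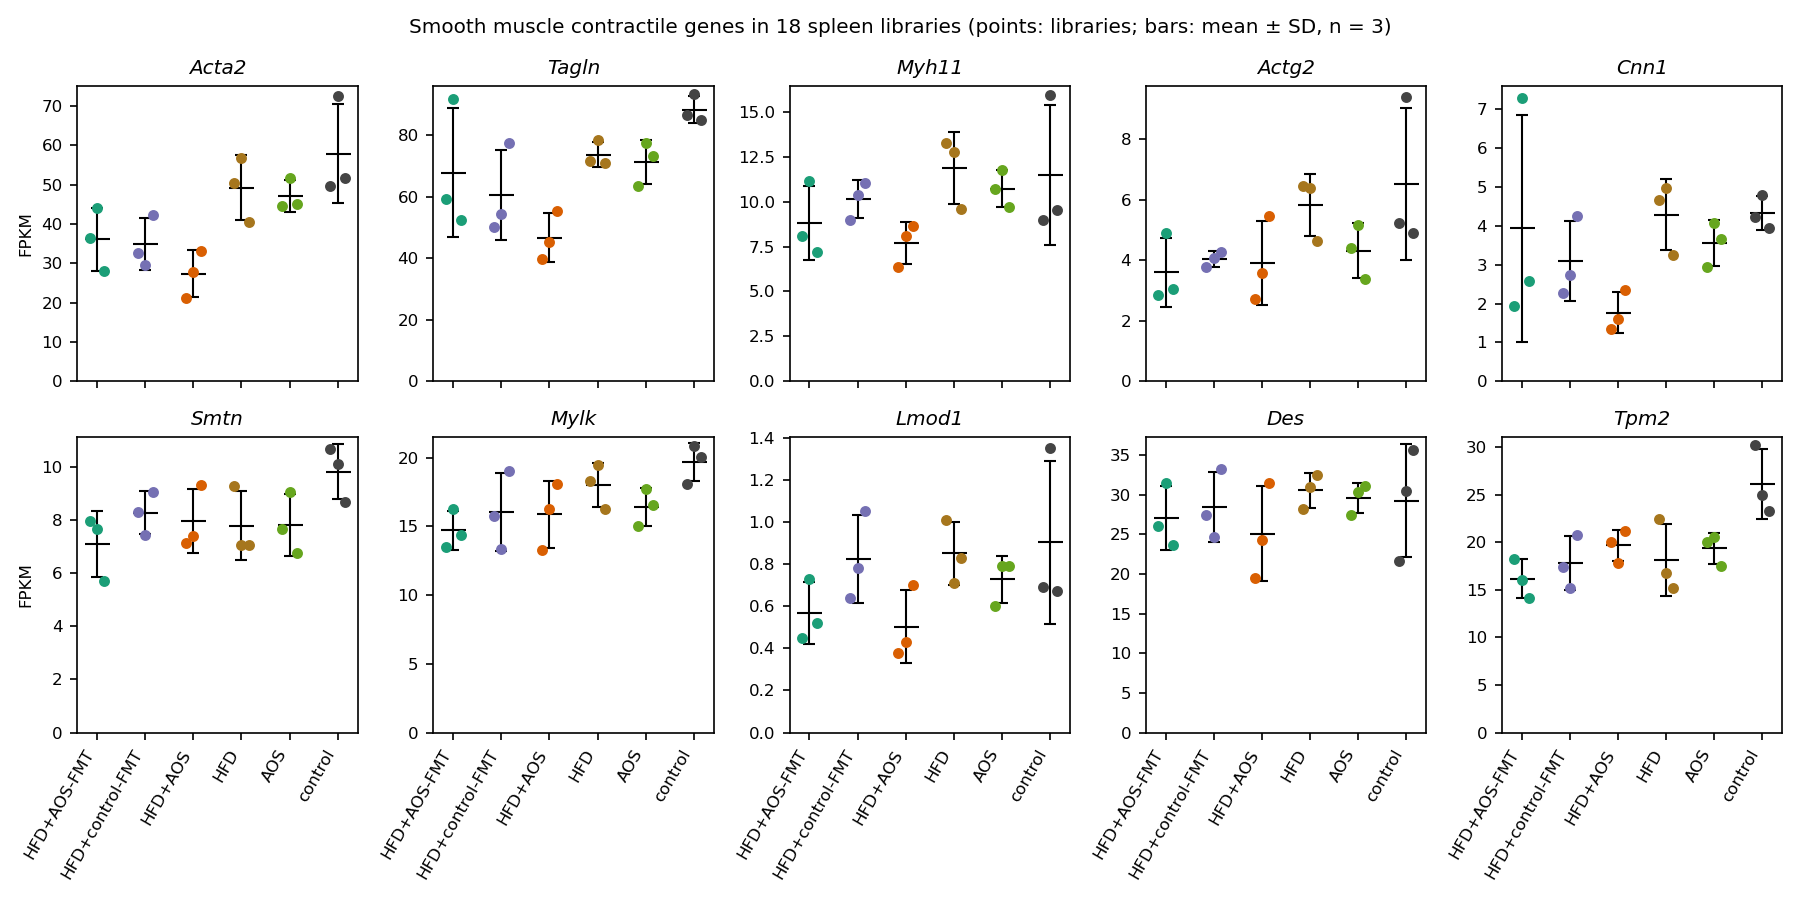
Values of the 10 genes (FPKM, linear axes from 0) in the 6 groups, each with its own axis, with points for libraries and bars for the mean ± SD (n = 3). For Acta2, Tagln, Myh11 and Cnn1 the 3 HFD+AOS libraries lie below the 3 HFD libraries, and for Tpm2 the 3 controls lie above all other libraries.

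Many of the members had their extremes in the same libraries and groups. How often other genes did so was not counted, so this is not shown to be a trait of the members. HFD+AOS replicate 1 held the lowest value of 8 of the 10 genes, all but *Smtn* and *Tpm2*, and the FPKM of the 10 genes summed to 131.55 there. Control replicate 2 held the highest value of 6, with a sum of 283.51. HFD+AOS replicate 1 had 12241 genes at 1 FPKM or more, against 12495 and 12533 in replicates 2 and 3. Control replicate 2 had 12898, against 12221 and 12403 in replicates 1 and 3. The lowest of the 6 group means was that of HFD+AOS for 6 genes and that of HFD+AOS-FMT for 4, *Actg2*, *Smtn*, *Mylk* and *Tpm2*. The highest was the control mean for 8 genes and the HFD mean for *Myh11* and *Des*. In the F test over the 6 groups (limma), 0 of 9 members passed an adjusted p of 0.05, where 0.116% of all 12969 tested genes did. An unadjusted p under 0.05 was found for 2853 genes (22%) and for 3 of 9 members. The smallest adjusted p of a member was 0.0712 for *Acta2*, followed by 0.101 for *Tagln* and 0.118 for *Tpm2*. *Acta2* came to 0.0492 without HFD+control-FMT replicate 3 and to 0.0399 without control replicate 3, and *Tpm2* to 0.0486 without HFD replicate 1. By mean, *Acta2* ran from 27.4 ± 5.99 FPKM (HFD+AOS) through 34.9 ± 6.55 (HFD+control-FMT), 36.1 ± 7.99 (HFD+AOS-FMT), 47.1 ± 4.0 (AOS) and 49.2 ± 8.26 (HFD) to 57.9 ± 12.7 (control; SD, n = 3 each). Neighbours in that order did not differ beyond their spread, apart from HFD+AOS-FMT and AOS, whose values did not overlap (at most 44.05 against at least 44.49 FPKM).

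*Tagln* kept the same groups at both ends, with 46.7 ± 7.86 FPKM in HFD+AOS and 88.2 ± 4.37 in control, and 60.6 ± 14.6 (HFD+control-FMT), 67.8 ± 21.0 (HFD+AOS-FMT), 71.3 ± 7.12 (AOS) and 73.6 ± 4.05 (HFD) between them. Its 3 control libraries and 1 HFD+AOS-FMT library (91.65 FPKM) were above all other libraries. *Myh11* averaged 7.69 ± 1.19 FPKM in HFD+AOS, 8.82 ± 2.06 in HFD+AOS-FMT, 10.1 ± 1.05 in HFD+control-FMT, 10.7 ± 1.02 in AOS, 11.5 ± 3.88 in control and 11.9 ± 1.98 in HFD. Its control libraries were the least alike, with 8.97, 15.95 and 9.52 FPKM, so that 2 of 3 controls were below every HFD library and 1 was above them all. *Actg2* showed the same control library apart, with 5.24, 9.40 and 4.88 FPKM in control and 4.41, 5.16 and 3.38 FPKM in AOS.

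*Des*, *Mylk* and *Smtn* differed least between groups, with ratios of the highest to the lowest group mean of 1.22, 1.34 and 1.38, against 1.54 to 2.45 for the other 7 members. *Mylk* means ran from 14.7 ± 1.43 FPKM (HFD+AOS-FMT) to 19.7 ± 1.41 (control), with every HFD+AOS-FMT library below every control library. *Des* means ran from 25.1 ± 5.99 FPKM (HFD+AOS) to 30.5 ± 2.18 (HFD), and its controls, with 21.61, 30.46 and 35.66 FPKM, nearly spanned the range of all 18 libraries. *Smtn* had 7.94, 7.64 and 5.68 FPKM in HFD+AOS-FMT, 7.12, 7.39 and 9.32 FPKM in HFD+AOS, 9.27, 7.04 and 7.04 FPKM in HFD and 10.67, 10.09 and 8.66 FPKM in control. The control values of *Smtn* were above all HFD+AOS-FMT values and overlapped those of HFD+AOS and HFD. *Tpm2* averaged 16.2 ± 2.05 FPKM in HFD+AOS-FMT, 17.8 ± 2.83 in HFD+control-FMT, 19.7 ± 1.67 in HFD+AOS, 18.1 ± 3.83 in HFD, 19.4 ± 1.66 in AOS and 26.1 ± 3.65 in control (SD, n = 3 each). The 5 groups other than control overlapped in *Tpm2*, and the 3 control libraries were above all 15 others.

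The comparison of HFD+AOS with HFD asked what AOS changed in mice on the diet. It shares its HFD libraries with the comparison of HFD with control. The 5 members *Acta2*, *Tagln*, *Myh11*, *Cnn1* and *Lmod1* were lower in each HFD+AOS library than in any HFD library, while *Smtn* and *Tpm2* had nearly equal means. *Acta2* had 21.16, 27.82 and 33.11 FPKM in HFD+AOS spleens, against 50.45, 56.79 and 40.41 FPKM in HFD spleens. *Tagln* had 39.63, 45.31 and 55.16 FPKM in HFD+AOS, against 71.53, 78.24 and 70.96 FPKM in HFD. The groups did not overlap for either gene, and the nearest libraries had 33.11 and 40.41 FPKM for *Acta2* and 55.16 and 70.96 FPKM for *Tagln*. *Cnn1* had 1.34, 1.60 and 2.35 FPKM in HFD+AOS spleens, against 4.65, 4.97 and 3.24 FPKM in HFD spleens. *Myh11* had 6.35, 8.09 and 8.62 FPKM in HFD+AOS, against 13.24, 12.76 and 9.60 FPKM in HFD. Again every HFD+AOS library was below every HFD library, with replicate 3 of the 2 groups nearest to each other. *Lmod1*, at 0.38, 0.43 and 0.70 FPKM in HFD+AOS and 1.01, 0.71 and 0.83 FPKM in HFD, had nearly equal values in its nearest libraries and was not tested.

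Of the 9 tested members, 0 passed the adjusted p of 0.05, as did 0% of all tested genes, whose smallest adjusted p was 0.0608. An unadjusted p under 0.05 was found for 4 of 9 members and for 1947 of all genes (15%). Differences are of log2(FPKM + 1), with intervals at 95%, and understate the change of low genes. The difference was -0.83 ± 0.20 (SE; interval -1.25 to -0.41; adjusted p = 0.171) for *Acta2* and -0.66 ± 0.18 (-1.05 to -0.26; adjusted p = 0.192) for *Tagln*. For *Cnn1* it was -0.94 ± 0.29 (-1.56 to -0.31; adjusted p = 0.202) and for *Myh11* -0.56 ± 0.19 (-0.97 to -0.16; adjusted p = 0.233). *Actg2* differed by -0.50, *Des* by -0.30 and *Mylk* by -0.18, with adjusted p of 0.334 to 0.501 and overlapping groups. *Smtn* differed by 0.03 (interval -0.27 to 0.33) and *Tpm2* by 0.13 (-0.18 to 0.43). The median of the 9 was -0.50, against -0.03 over all tested genes. A difference below 0 was found for 7 of 9 members and for 58.1% of all genes. Groups that did not overlap, with the HFD+AOS values lower, were seen in 4 of the 9 and in 9.57% of all genes.

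**Figure D2:**
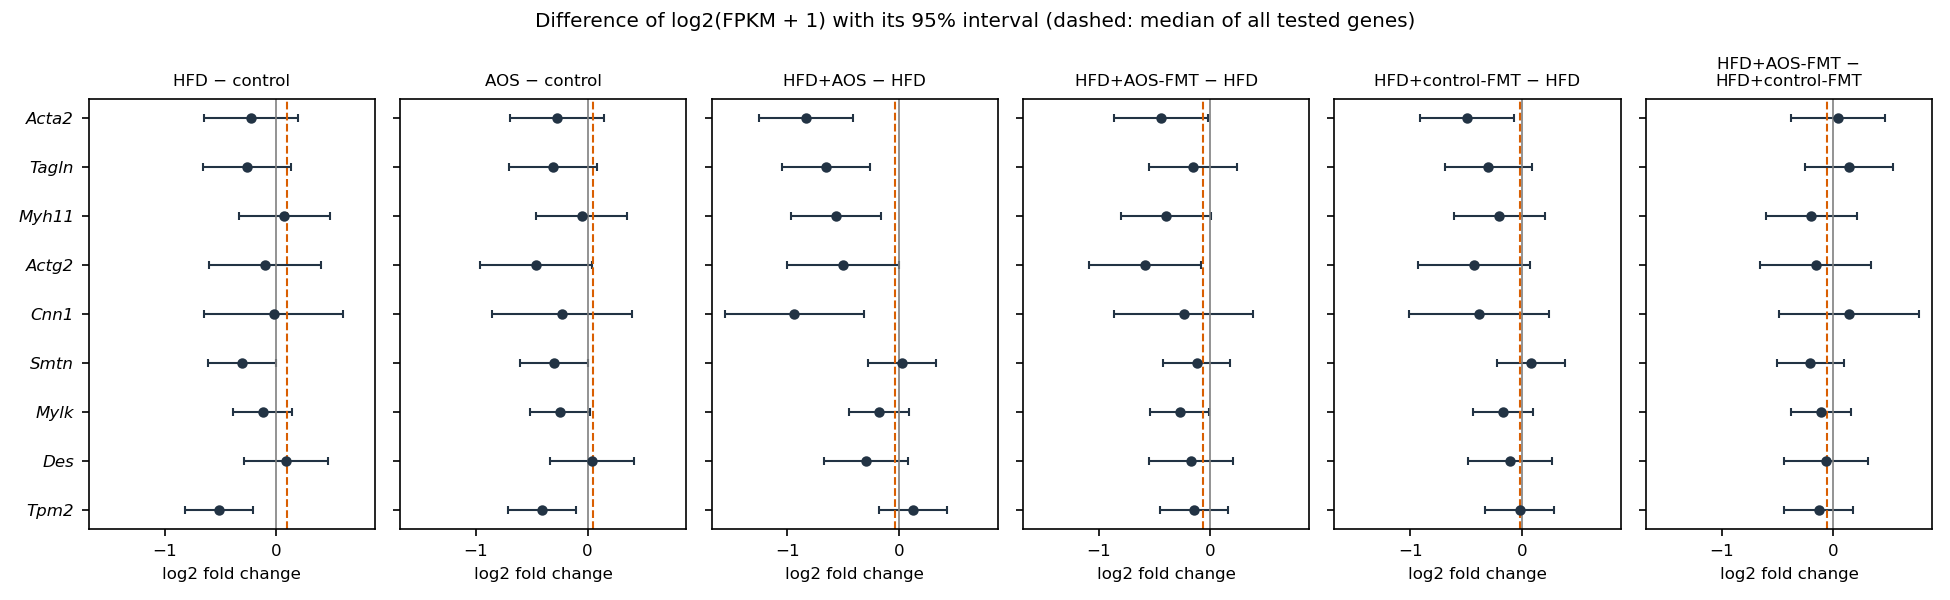
Differences of log2(FPKM + 1) between groups for the 9 tested genes, with 95% intervals from limma, for 6 comparisons. The dashed line is the median of all tested genes and the grey line is 0. In HFD+AOS minus HFD the intervals of Acta2, Tagln, Myh11 and Cnn1 lie below 0, and in HFD minus control those of Tpm2 and Smtn do. The same holds for Tpm2 in AOS minus control and for Acta2 in HFD+control-FMT minus HFD. It also holds for Acta2, Actg2 and Mylk in HFD+AOS-FMT minus HFD.

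Deviations from group means in same-numbered libraries of HFD+AOS and HFD correlated at 0.236, 0.268 and 0.191. Libraries of unlike number were not compared in this way, so these values do not show a pairing. With the replicate number as a block in the fit to all 18 libraries, 33 genes were called in place of 0. That fit shares the block over all 6 groups, though in the other comparisons of groups the 3 pairs did not all correlate above 0.1. None of the 33 genes was a member, and *Acta2* had an adjusted p of 0.0729 with the block. Without HFD+AOS replicate 1, the library with the lowest sum, the *Acta2* difference was -0.67 (adjusted p = 0.456).

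Genes outside the member list gave a graded picture in HFD+AOS against HFD. Of 23 tested genes in a list of further contractile and cytoskeletal genes, 20 were lower and 0 were called, with a median of -0.17. The smallest p in it were those of *Cnn2*, a calponin of many cell types (-0.26, adjusted p = 0.199), and *Itga8*, an integrin subunit of smooth muscle and mesenchymal cells (-0.68, adjusted p = 0.200). Of 16 regulators 10 were lower (median -0.09, 0 called), led by *Srf* at -0.23 and *Mef2d*, a myocyte enhancer factor, at -0.21. Marker lists of other cells and tissues also differed in level between these groups, with 0 genes called in each, and their part in the member differences was not tested. Fibroblast and reticular cell genes were lower for 13 of 14 (median -0.44, 7 at an unadjusted p under 0.05, 0 called). They summed to 1198 to 1734 FPKM in HFD+AOS libraries and 1895 to 2409 FPKM in HFD libraries. Among them *Col6a1*, a collagen chain, differed by -0.54 and *Dcn*, decorin, by -0.82. Genes of the mesothelium that covers the capsule were lower for 8 of 8 (median -0.66, 4 at an unadjusted p under 0.05, 0 called). Their sums were 14.3 to 43.2 FPKM in HFD+AOS and 37.5 to 64.0 FPKM in HFD. The mesothelial markers *Msln* and *Upk3b* differed by -1.09 and -1.12. Endothelial genes were lower for 4 of 10 (median 0.10) and mural cell genes for 5 of 8 (median -0.11). The mural cell list is not apart from the others, since it holds the member *Des* (-0.30) and shares *Mcam* (-0.37) with the further contractile genes. Lists of other tissues had larger medians. Adipocyte genes were lower for 7 of 7 (median -1.65, 0 called), with sums of 13.5 to 172 FPKM in HFD+AOS and 184 to 237 FPKM in HFD, and the smallest p was that of *Cfd*, adipsin (-2.22, adjusted p = 0.330). Exocrine pancreas genes were higher for 10 of 10 (median 2.21, 0 called), with sums of 166 to 11980 FPKM in HFD+AOS and 91.5 to 1871 FPKM in HFD. No marker of these 6 lists was at 0 in all libraries. Haemoglobin took 12.6% to 28.1% of FPKM in HFD+AOS and 10.8% to 27.4% in HFD. Erythroid genes were higher in HFD+AOS for 12 of 12 (median 0.47, 2 at an unadjusted p under 0.05, 0 called). The smallest p were those of *Epb42* (0.60) and *Slc4a1* (0.65). The erythroid sums were 79988 to 216048 FPKM in HFD+AOS and 69275 to 203703 FPKM in HFD, and their part was not tested either.

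Set against control, HFD tests the diet alone, and of the 9 tested members *Tpm2* differed most. *Tpm2* had 22.46, 16.81 and 15.15 FPKM in HFD spleens, against 30.23, 24.94 and 23.24 FPKM in control spleens. Every HFD library was below every control library, the nearest being HFD replicate 1 and control replicate 3. The difference was -0.51 ± 0.14 (SE; interval -0.82 to -0.21), with an adjusted p of 0.0562. This lies next to the threshold. The adjusted p was 0.0143 without HFD replicate 1, 0.0163 without control replicate 3, 0.0475 when genes needed a group mean of 5 FPKM, and 0.261 without control replicate 1. So 0 of 9 members were called, where 357 genes (2.75%) were, and 2 of 9 had an unadjusted p under 0.05, as had 28.6% of all genes. The difference was below 0 for 7 of 9 members and for 31.5% of all genes. *Smtn* differed by -0.30 (adjusted p = 0.172). *Tagln* had 71.53, 78.24 and 70.96 FPKM in HFD and 86.48, 93.19 and 84.99 FPKM in control, again without overlap, and differed by -0.26 (adjusted p = 0.355). *Acta2*, *Mylk*, *Actg2* and *Cnn1* differed by -0.22, -0.12, -0.10 and -0.02. *Myh11* at 0.07 and *Des* at 0.09 were near the median of all genes, 0.10, and scaling by median ratios, which brought that median to -0.000196, put them at -0.03 and -0.02. Groups without overlap and lower on HFD were 2 of 9 members, *Tagln* and *Tpm2*, against 5.44% of all genes.

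Beside *Tpm2*, the further contractile genes with the smallest p in HFD against control were *Tpm1*, another tropomyosin, at -0.28 (adjusted p = 0.0653), and *Vcl*, vinculin, which ties actin to the membrane, at -0.37 (adjusted p = 0.0883). That list had 13 of 23 genes higher and 0 called, with a median of 0.00088. Of the regulators 14 of 16 were higher and 0 called, led by *Mef2c* (0.43) and *Mef2d* (0.37). Platelet and megakaryocyte genes were lower for 9 of 9 (median -0.66, 6 at an unadjusted p under 0.05, 0 called). They were led by *Tubb1*, the platelet tubulin, at -0.79 (adjusted p = 0.0575) and *Treml1*, a platelet granule receptor, at -0.71. The list summed to 707 to 1039 FPKM in HFD and 848 to 2116 FPKM in control. Neutrophil genes were lower for 8 of 8 (median -2.03, 8 at an unadjusted p under 0.05, 0 called), with sums of 614 to 1125 FPKM in HFD and 813 to 15627 FPKM in control. Erythroid genes were lower for 12 of 12 (median -1.07), with sums of 69275 to 203703 FPKM in HFD and 146423 to 287797 FPKM in control. Of them 4 were called, among them *Epb42* (-1.25, adjusted p = 0.0443) and *Slc4a1* (-1.25, adjusted p = 0.0459), which encode proteins of the red cell membrane. None of these 3 lists had a marker at 0 throughout, and their part in the *Tpm2* difference was not tested. Of the mural cell list 1 of 8 was called, *Anpep*, an aminopeptidase, which rose by 0.44 (adjusted p = 0.0450). Its call held in 10 of 29 alternatives, with adjusted p of 0.00642 to 0.342, and those of *Epb42* and *Slc4a1* in 11 and 10 of 29. Fibroblast and mesothelial genes were mostly higher (13 of 14 and 8 of 8, 0 called).

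AOS given off the diet was set against the same controls as HFD, so the 2 comparisons share libraries. *Tpm2* had 20.03, 20.60 and 17.49 FPKM in AOS spleens, against 30.23, 24.94 and 23.24 FPKM in control spleens. Its groups did not overlap, as for *Tagln* (at most 77.25 against at least 84.99 FPKM) and *Mylk* (at most 17.75 against at least 18.11 FPKM). These 3 of 9 members compare with 5.1% of all genes that were lower without overlap. The difference of *Tpm2* was -0.41 (interval -0.72 to -0.10, adjusted p = 0.204), that of *Actg2* -0.46, *Tagln* -0.31, *Smtn* -0.30, *Acta2* -0.28, *Mylk* -0.25 and *Cnn1* -0.23, with adjusted p of 0.330 to 0.771. *Myh11* at -0.05 and *Des* at 0.04 (-0.02 after scaling by median ratios) were near 0. The median was -0.28, against 0.05 over all tested genes. None of the 9 was called, and neither was any of the 12969 genes (0%), while 1998 (15.4%) had an unadjusted p under 0.05, with 1 member among them. The difference was below 0 for 8 of 9 members and for 37.6% of all genes. *Tpm1* was at -0.32 and *Vcl* at -0.42, each with an adjusted p above 0.13. The platelet genes were again lower for 9 of 9 (median -0.51, 4 at an unadjusted p under 0.05, 0 called). Their sums were 742 to 1140 FPKM in AOS and 848 to 2116 FPKM in control. Neutrophil genes were lower for 8 of 8 (median -2.08, 8 at an unadjusted p under 0.05, 0 called), with sums of 571 to 1467 FPKM in AOS, and erythroid genes for 11 of 12 (median -0.57, 5 at an unadjusted p under 0.05, 0 called), with sums of 120591 to 191912 FPKM in AOS. Their part in the member differences was not tested.

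The interaction of AOS and diet, (HFD+AOS minus HFD) minus (AOS minus control), tested whether AOS acted alike on and off the diet. It called 0 of 9 members and 0% of all genes. An unadjusted p under 0.05 was found for 1 of 9 members and for 2058 genes (15.9%), and a value below 0 for 6 of 9 members and for 65.2% of all genes. *Tpm2* had the smallest p of the members, with a difference of 0.53 (interval 0.10 to 0.97, adjusted p = 0.257). *Acta2* was at -0.56 (-1.15 to 0.04), *Cnn1* at -0.71 (-1.59 to 0.18) and *Myh11* at -0.51 (-1.09 to 0.06).

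Both FMT groups were set against the same HFD libraries. *Acta2* had 36.30, 44.05 and 28.07 FPKM in HFD+AOS-FMT and 32.71, 29.67 and 42.22 FPKM in HFD+control-FMT, against 50.45, 56.79 and 40.41 FPKM in HFD. In each FMT group 2 of 3 libraries were below the HFD range and 1 reached into it. The differences from HFD were -0.44 (interval -0.87 to -0.02, adjusted p = 0.350) for HFD+AOS-FMT and -0.49 (-0.91 to -0.07, adjusted p = 0.999) for HFD+control-FMT. *Actg2* had 2.84, 4.90 and 3.06 FPKM in HFD+AOS-FMT and 3.76, 4.08 and 4.28 FPKM in HFD+control-FMT, against 6.44, 6.39 and 4.64 FPKM in HFD. Its HFD+control-FMT libraries all lay below HFD, the only member of 9 to do so, where 5.59% of all genes did. It differed from HFD by -0.58 in HFD+AOS-FMT (adjusted p = 0.316) and by -0.43 in HFD+control-FMT (adjusted p = 0.999). In HFD+AOS-FMT against HFD, 9 of 9 members had a difference below 0, as had 67.5% of all genes, with a median of -0.24 against -0.07, and groups without overlap and lower were 0 of 9, against 16.7%. *Myh11* was at -0.40 and *Mylk* at -0.28. In HFD+control-FMT against HFD the median was -0.20 against -0.02 over all genes, with *Smtn* at 0.08 the one member above 0, so that 8 of 9 were below 0, as were 55.5% of all genes. The members called were 0 in each, and all genes called were 0% and 0.0154%. An unadjusted p under 0.05 was found for 1770 genes (13.6%) in HFD+AOS-FMT, with 3 members among them, and for 601 genes (4.63%) in HFD+control-FMT, with 1 member.

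Of the further contractile genes 21 of 23 were lower in HFD+AOS-FMT than in HFD (median -0.20) and 19 of 23 in HFD+control-FMT (median -0.14), with 0 called in either. *Flna*, filamin A, which cross-links actin, was at -0.25 in HFD+AOS-FMT (adjusted p = 0.285). *Itga8* was at -0.44 in HFD+control-FMT (adjusted p = 0.999). Regulators were lower for 13 of 16 and 8 of 16. Fibroblast and reticular cell genes were lower for 14 of 14 in HFD+AOS-FMT (median -0.29, sums of 1670 to 1975 FPKM) and for 7 of 14 in HFD+control-FMT (median -0.00098, sums of 1871 to 2790 FPKM), against sums of 1895 to 2409 FPKM in HFD. Of the fibroblast list 4 of 14 had an unadjusted p under 0.05 in HFD+AOS-FMT and 0 in HFD+control-FMT. Mesothelial genes were lower for 8 of 8 in both. Erythroid genes were higher for 12 of 12 in both, with medians of 0.89 in HFD+AOS-FMT (5 at an unadjusted p under 0.05) and 0.21 in HFD+control-FMT. Adipocyte genes were lower for 7 of 7 in both, with medians of -1.20 and -0.47. No gene of these 2 lists was called. The part of all these lists in the member differences was not tested.

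*Cnn1* varied most within a group, with 1.94, 7.28 and 2.57 FPKM in HFD+AOS-FMT. The middle value, replicate 2, was the highest of all 18 libraries, and *Tagln* had 91.65 FPKM in it, against 59.24 and 52.44 in the others. Without that library *Cnn1* differed from HFD by -0.69, in place of -0.24, and without replicate 1 by 0.06. It was called in neither.

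On the reading that AOS was given to the donors, HFD+AOS-FMT against HFD+control-FMT asked whether that AOS mattered. All 9 differences had intervals that included 0, from -0.20 for *Smtn* (interval -0.51 to 0.10) and *Myh11* (-0.60 to 0.21) to 0.14 for *Tagln* (-0.25 to 0.54) and *Cnn1* (-0.48 to 0.77). Adjusted p ran from 0.646 to 0.964. *Acta2* averaged 36.1 ± 7.99 FPKM in HFD+AOS-FMT and 34.9 ± 6.55 FPKM in HFD+control-FMT (SD, n = 3 each), with overlapping ranges. No member was called, where 0.00771% of all genes were, and 0 of 9 had an unadjusted p under 0.05, against 10.5%. The difference was below 0 for 6 of 9 members and 65.2% of all genes, and 0 of 9 were lower without overlap, against 15.6%. The intervals do not show that the groups are alike.

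Over the 18 libraries the members did not vary as 1 block. *Myh11*, taken as the point of comparison because it marks differentiated smooth muscle, was correlated with *Actg2* (Pearson r 0.856, Spearman coefficient 0.713), *Acta2* (r 0.853, Spearman 0.781) and *Lmod1* (r 0.853, Spearman 0.803). The permutation p of r was 1e-05 for *Actg2* and *Acta2*, the smallest that 100000 permutations can give, and 2e-05 for *Lmod1*, and adjusted over the 9 relations it was 4.5e-05, 4.5e-05 and 6e-05. Without the 2 libraries farthest from the median of *Myh11*, r was 0.732, 0.718 and 0.716. *Cnn1* (r 0.771, Spearman 0.843, adjusted permutation p = 0.000472) and *Tagln* (r 0.734, Spearman 0.686, adjusted permutation p = 0.000972) followed, with r of 0.721 and 0.579 without those libraries. *Mylk* had r 0.654 (Spearman 0.602, adjusted permutation p = 0.00474) and *Des* r 0.577 (Spearman 0.501, adjusted permutation p = 0.0150), which came to 0.451 and 0.441 without those 2 libraries. *Smtn* (r 0.446, Spearman 0.300, adjusted permutation p = 0.0720) and *Tpm2* (r 0.249, Spearman 0.195, adjusted permutation p = 0.320) did not pass. All points share the scaling of their library, and group differences enter these values. In deviations from group means r with *Myh11* was 0.919 for *Actg2*, 0.871 for *Acta2*, 0.780 for *Lmod1*, 0.675 for *Cnn1*, 0.644 for *Tagln*, 0.598 for *Mylk*, 0.432 for *Des*, 0.484 for *Smtn* and 0.204 for *Tpm2*.

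Among all 45 pairs the median r was 0.641. The 10 pairs among *Acta2*, *Tagln*, *Myh11*, *Actg2* and *Cnn1* had r of 0.684 to 0.921, the highest being *Tagln* with *Cnn1* (Spearman 0.905, adjusted permutation p = 0.00015 over the 45 pairs, r 0.871 without the 2 farthest libraries). *Smtn* and *Tpm2* were closest to each other, with r 0.864 (Spearman 0.846, adjusted permutation p = 0.00018). This r was 0.785 without the 2 farthest libraries and 0.841 in deviations from group means. With the other 8 members their r was -0.03 to 0.617. *Des* with *Tpm2* was lowest, at -0.03 (Spearman 0.0939, adjusted permutation p = 0.904). It was 0.450 without the 2 libraries farthest from the median of *Des*, so the value rests on them. These pairs were added after the data had been seen.

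**Figure D3:**
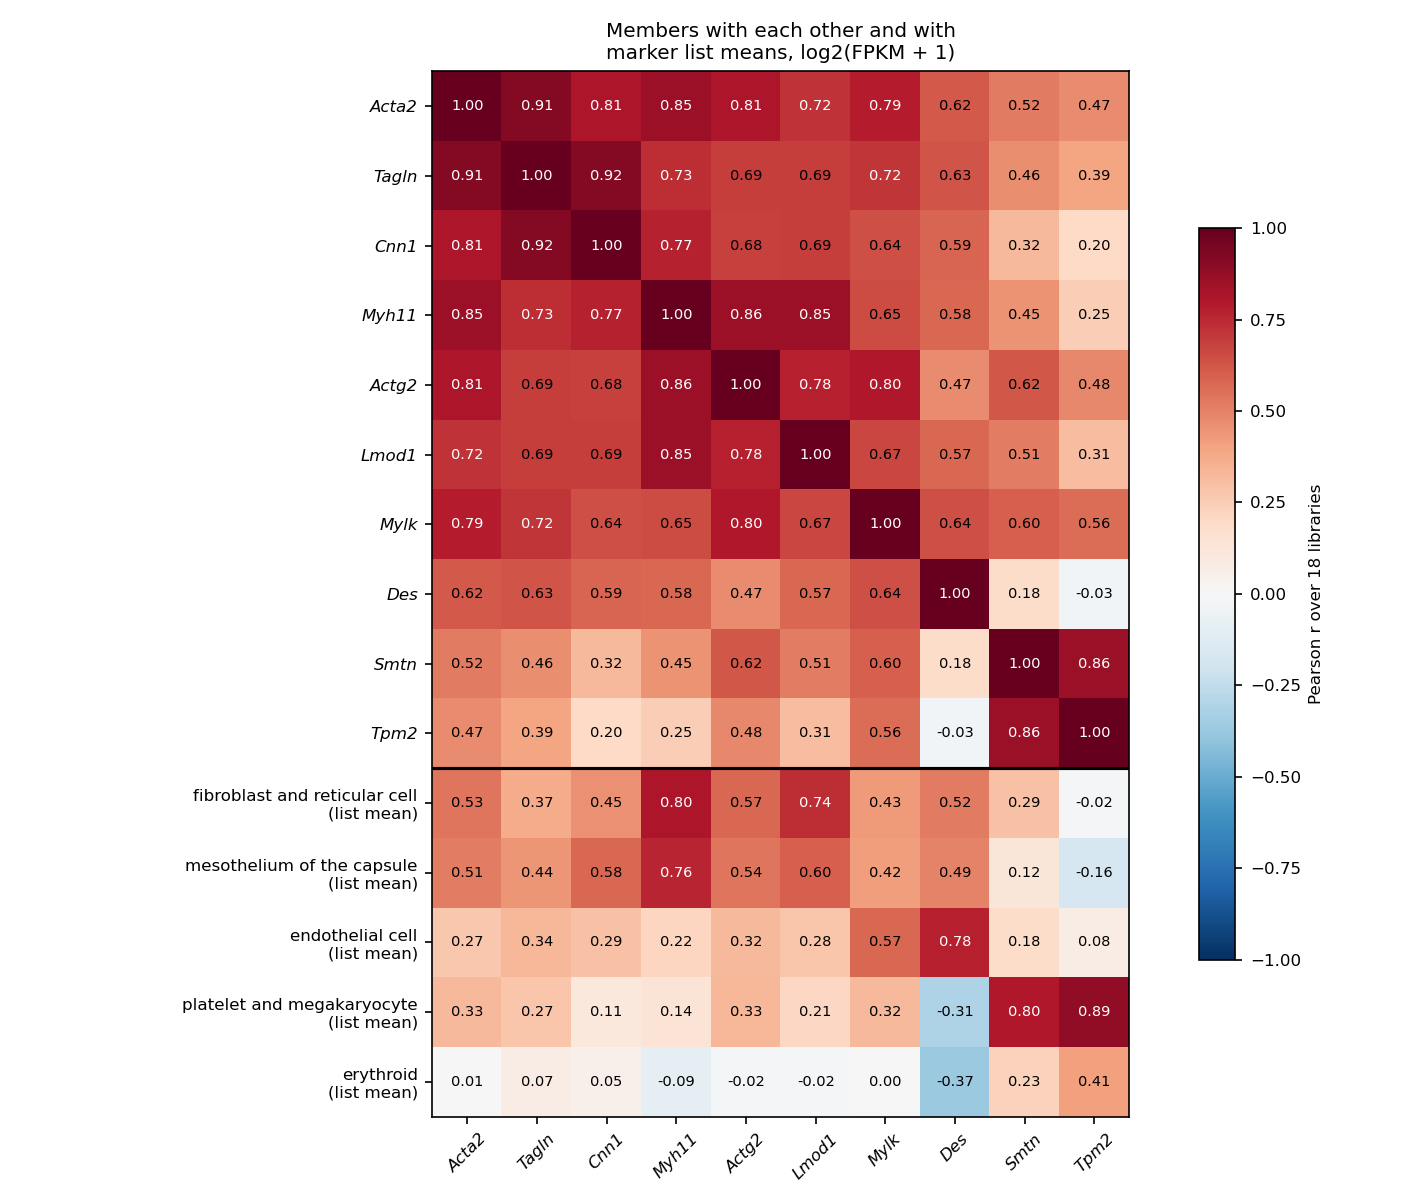
Pearson r over the 18 libraries of log2(FPKM + 1), between the 10 genes (upper 10 rows) and between each gene and the mean of 5 marker lists (lower 5 rows), from -1 in blue to 1 in red. Smtn and Tpm2 have r 0.86 with each other and -0.03 to 0.62 with the other genes. With the platelet and megakaryocyte mean they have r of 0.80 and 0.89, while Des has 0.78 with the endothelial mean.

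The members also differed in the cell type markers they varied with, in 50 relations of 10 members with 5 lists, added after the data had been seen. *Tpm2* had r 0.886 with the mean of the platelet and megakaryocyte genes (Spearman 0.866, adjusted permutation p = 0.000667) and *Smtn* r 0.800 (Spearman 0.816, adjusted permutation p = 0.000667). Control replicate 1 was highest in *Tpm2*, *Smtn* and that mean. Without the 2 libraries farthest from the median of the list mean r was 0.857 and 0.874, and in deviations from group means 0.829 and 0.675. For *Acta2*, *Tagln*, *Myh11*, *Actg2* and *Cnn1* it was 0.11 to 0.33. *Des* had r 0.781 with the mean of the endothelial genes (Spearman 0.827, adjusted permutation p = 0.00220), 0.782 without the 2 farthest libraries and 0.945 in deviations from group means. In deviations from group means the endothelial mean also had r of 0.724 with *Mylk*, 0.706 with *Tagln*, 0.545 with *Cnn1* and 0.538 with *Acta2*. Its r with the remaining members was -0.07 to 0.444. *Myh11* had r 0.805 with the fibroblast and reticular cell mean (adjusted permutation p = 0.000667) and 0.764 with the mesothelial mean (adjusted permutation p = 0.00220). *Lmod1* had r 0.738 with the fibroblast mean. In deviations the fibroblast mean had r of 0.791 with *Myh11*, 0.704 with *Actg2*, 0.701 with *Lmod1* and 0.658 with *Acta2*. For the remaining members it was 0.152 to 0.515. The erythroid mean, which tracks red cell content, had r of -0.37 to 0.41 with the members. Single control libraries serve as an example. In control replicates 1, 2 and 3 *Des* had 21.61, 30.46 and 35.66 FPKM, beside an endothelial mean of 3.37, 3.60 and 3.92 on the log2 scale. *Tpm2* had 30.23, 24.94 and 23.24 FPKM beside a platelet mean of 6.77, 5.89 and 5.48. *Myh11* had 8.97, 15.95 and 9.52 FPKM beside a fibroblast mean of 4.14, 4.74 and 4.33. In control the library highest in each of these genes was also highest in its list. Over the 6 groups the same library was highest in gene and list in 5 groups for *Des* (not in AOS), in 5 for *Tpm2* (not in HFD+AOS) and in 4 for *Myh11* (not in HFD+AOS or HFD+control-FMT). These 3 pairs are among those with the highest r of the 50 in the same libraries, so the counts are an illustration and not separate evidence. Whether the relations of members with lists reflect the mix of cells in each piece of spleen was not tested.

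**Figure D4:**
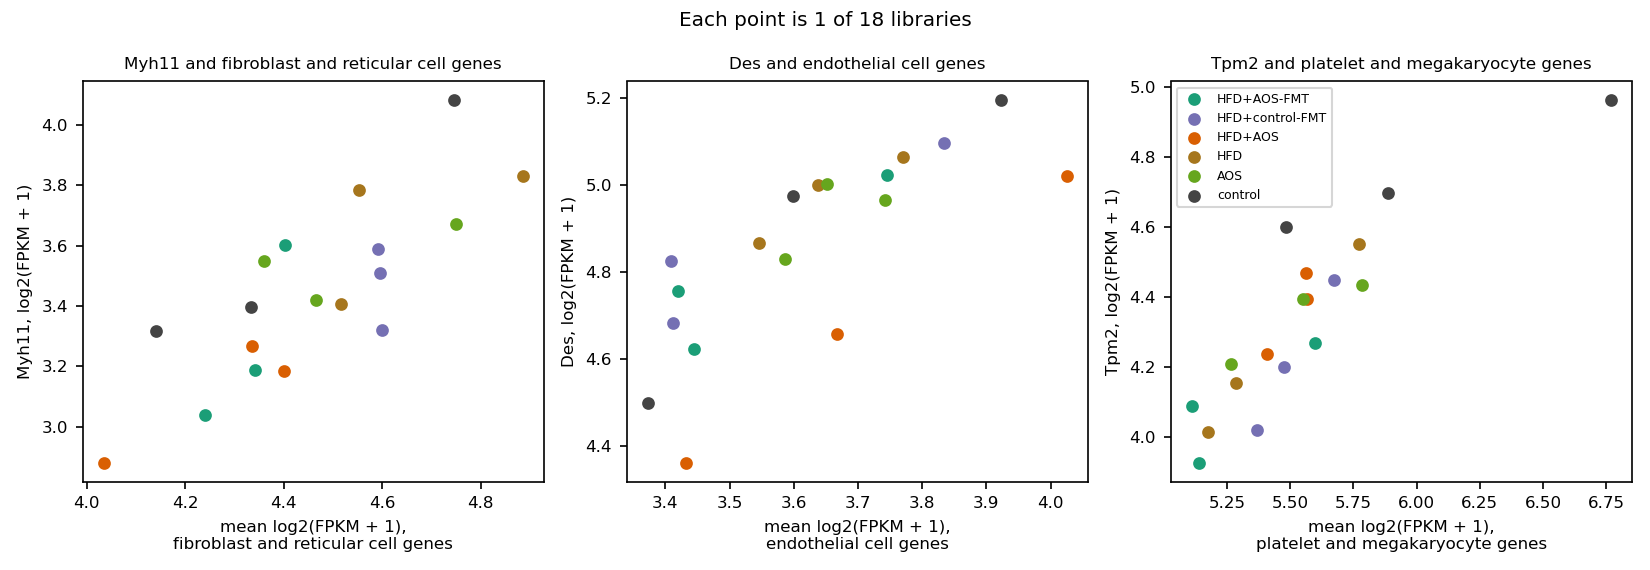
Each of 3 genes (vertical axes, log2(FPKM + 1)) against the mean log2(FPKM + 1) of a marker list (horizontal axes), with 1 point per library coloured by group. Tpm2 increases with the platelet and megakaryocyte mean over all 18 libraries (r 0.886), and control replicate 1 is the point farthest right.

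Outside the member list, the 5 tested genes most like the mean of the standardized members over the 18 libraries were *Esam* (r 0.907), *Gstm1* (0.906), *Cavin1* (0.861), *Fhl1* (0.859) and *Itga8* (0.827), given as a description with no test. *Esam* encodes an adhesion molecule of endothelial cells and platelets, *Gstm1* a glutathione transferase, *Cavin1* a coat protein of caveolae and *Fhl1* a LIM domain protein of muscle. *Gstm1* averaged 23.4 FPKM in HFD+AOS, 34.5 FPKM in HFD and 41.3 FPKM in control. Of the 23 further contractile genes 22 had r above 0 with the member mean (median 0.598). Over all tested genes outside the members 6873 of 12957 did (median 0.0201). Other lists were also above that median, with adipocyte genes at 7 of 7 (0.538) and fibroblast and reticular cell genes at 13 of 14 (0.505). Mesothelial genes had 8 of 8 (0.452), neutrophil genes 8 of 8 (0.413) and platelet genes 9 of 9 (0.375). Erythroid genes (9 of 12, 0.0641) and exocrine pancreas genes (9 of 10, 0.0174) were near it.

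The members lie on 7 chromosomes (GRCm38). *Myh11* (chr16:14194535-14291372, minus strand) and *Mylk* (chr16:34745210-35002420, plus strand) share chromosome 16. *Tagln* (chr9:45929619-45936058, minus strand) and *Cnn1* (chr9:22099216-22109630, plus strand) share chromosome 9, and *Lmod1* (chr1:135324807-135368065) and *Des* (chr1:75360329-75368579), both on the plus strand, share chromosome 1. *Acta2* (chr19:34241090-34255590), *Actg2* (chr6:83512905-83536265), *Smtn* (chr11:3517523-3540612) and *Tpm2* (chr4:43514711-43523765) are on the minus strand of chromosomes of their own. Exons of *Tagln* overlap *Pcsk7* and *Gm48529* on the other strand, those of *Smtn* overlap *Gm11946* and *Gm11947*, those of *Mylk* overlap *E130310I04Rik* and *Gm21691*, and those of *Des* overlap *Gm15179*. Whether counting used the strand is not given in the sources used here, so reads of such partners cannot be told apart. Of windows of 50 bases, 0.352% of the *Acta2* transcript were also in transcripts of *Actg1* and other genes, 0.400% of that of *Myh11* in *Myh9* or *Myh10*, and 0% for the other 8 members.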

How the data were processed

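RNA of 18 spleen libraries was analysed from 1 deposited table. Per the submitters' processing notes, Bowtie 0.12.2 and mm10 were used. The deposited values are taken to be FPKM, since sums of value times transcript length varied by 0.785% between libraries and plain totals by 7.55%. RPKM would look alike. No source used here gives the counter, annotation, strand setting or filters. Depth is unknown, so no counting error is given. Relative depth from low values of olfactory receptor genes was 0.958 to 1.11, within a window that itself keeps this range narrow.

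Values were analysed as log2(FPKM + 1). Rows whose highest group mean reached 1 FPKM, 12969 in number, entered 1 fit to all 18 libraries in limma 3.58.1, with trended, robust variance (statmod 1.5.0, R 4.3.3). P-values were adjusted over all of them by the method of Benjamini and Hochberg, with a threshold of 0.05. Because the spread is pooled, p can be too small for groups that vary more than others. The method was tested on simulated data. Correlations used 100000 two-sided permutations (scipy 1.17.1, numpy 2.4.6, pandas 2.3.3, Python 3.11.15), and figures matplotlib 3.10.9. Replicate numbers were taken to pair libraries only where the residuals of all 3 pairs correlated above 0.1, which held for HFD+AOS against HFD. Alternatives were other pseudocounts, filters, scalings and variance models, a fit to only the compared groups, the replicate block, and each library left out. Named are all members, in each list described the called genes or the 2 with the smallest p, the 5 genes most like the member mean, and, for the tissue check, defining markers chosen after their values were seen. Another list of genes and a few genes that the rule selects are not reported here. The members and lists were chosen with earlier results of these data known.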

Additional observations from a re-analysis of the deposited data

How the results depend on the processing

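Over 18 left-out libraries and 11 other settings, 1820 member values were refitted. None changed sign while called, 47 changed sign with neither value called, and 5 were called, all *Tpm2* in HFD against control. Members called there were 0 as reported, and 1 with a group mean of at least 5 FPKM, with the replicate block (*Tpm2* adjusted p = 0.0259) and with the replicate block on only the compared groups (adjusted p = 0.0485, an alternative added after the data were seen). With 1 library left out the number was 0 to 1, and likewise 0 to 1 for the F test. Over all alternatives the adjusted p of *Tpm2* was 0.0143 to 0.342. For HFD against control the pairs' correlations were 0.151, 0.0379 and 0.36, so the numbers were not taken to pair those libraries. The block changed no other member's call. The *Acta2* difference between HFD+AOS and HFD was -0.98 to -0.67 (adjusted p 0.0729 to 0.503). *Des* with *Myh11* had r 0.432 in deviations from group means (adjusted permutation p = 0.0822), and 0.425 to 0.642 with 1 library left out, where *Smtn* with *Myh11* had 0.319 to 0.560 (adjusted permutation p 0.0212 to 0.238). The other correlations with *Myh11* kept their side of the threshold under the alternatives run. The count of all genes called in HFD against control depended most on the setting, with 357 as reported, 0 to 1842 over other settings (1842 with the replicate block) and 0 to 3758 with 1 library left out (3758 without control replicate 3). In the F test it was 15, with 2 to 210 and 1 to 1022. AOS against control gave 0, and 243 without control replicate 3. HFD+AOS against HFD gave 0, and 33 with the block. HFD+AOS-FMT against HFD gave 0, and 39 without HFD replicate 1. The causes were not tested. Unknown depth limits the low genes most, *Lmod1*, *Cnn1* and *Actg2*.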
